A study of Mus musculus with 32 samples.

Results

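The cytosolic ribosomal protein genes encode the proteins of the 2 subunits of the cytosolic ribosome. They were taken as the protein-coding mouse genes whose symbol begins with Rpl or Rps followed by a digit, with Rplp0, Rplp1, Rplp2 and Rpsa, and without the Rps6k kinases, Rps19bp1 and pseudogenes. The rule found 85 genes among the 49585 entries of the table, 52 of the large and 33 of the small subunit by symbol alone. Of these, 82 passed the filter on low counts. The 3 that did not were Rpl10l, Rpl3l and Rpl39l, paralogs of Rpl10, Rpl3 and Rpl39: Rpl10l had no count in any of the 32 libraries, and the others had at most 0.0859 CPM (the count scaled to library size) in any library.

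Ribosomal proteins assemble with ribosomal RNA in the nucleolus, and free members such as Rpl5 and Rpl11 can bind Mdm2 and so act on p53. Most of their mRNAs begin with a C followed by a run of pyrimidines, the 5′ terminal oligopyrimidine (TOP) motif, through which the mTORC1 kinase and the RNA-binding protein Larp1 control their translation and stability. Their mRNAs are short, abundant and long-lived, and several of their introns carry small nucleolar RNAs (snoRNAs).

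The cells were FE1, an established mouse lung epithelial cell line. They received 0, 1, 4, 6 or 10 mM hydrazine, a reactive nitrogen compound, for 4 h and were harvested straight away or 20 h after the compound was washed out. Each group held 3 libraries, apart from 4 mM at 4 h with 5, and vehicle cells were collected at both times. The labels did not say whether the libraries of a group came from separate cultures, and the p-values measure how far these libraries scatter, which may be technical. RNA was measured by poly-A selected, stranded sequencing, deposited as estimated counts per gene, with 10560942 to 17086721 counts per library. The label was not matched by defining markers. Of 18 markers of lung epithelium, 10 had no count in any vehicle library at 4 h, among them Epcam, Krt19, Sftpc and Nkx2-1, and the summed level of all 18 ran from 8.83 to 22.1 CPM over the libraries, with Hopx the highest in the vehicle. The 11 markers of mesenchyme summed to 20411 to 26093 CPM, led by Vim and Col1a1. The 6 endothelial markers summed to at most 0.683 CPM and the 6 leukocyte markers to at most 4.32 CPM. In bulk RNA a change in cell number of a type and a change in RNA per cell cannot be told apart.

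The 4 genes with the largest rise and the 4 with the lowest change at 10 mM among those with a promoter entry are shown first, with Rps6, because the results turn on how alike these genes moved and on the few that did not. Each sequence runs from 75 bases before to 25 bases after the annotated start, 5′ to 3′, from the RefSeq promoter table on GRCm38.p6. Capitals mark the ETS-type motifs CCGGAA and CTTCCG and their reverse complements TTCCGG and CGGAAG, and every run of at least 5 pyrimidines that began with C and lay from 10 bases before to 15 bases after the annotated start. CCGGAA and CGGAAG overlap in CCGGAAG.
Rpl12, chr2:32961637-32961736, plus strand: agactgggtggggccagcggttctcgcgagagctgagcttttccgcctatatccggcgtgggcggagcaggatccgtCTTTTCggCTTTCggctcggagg
Rps27, chr3:90213624-90213723, minus strand: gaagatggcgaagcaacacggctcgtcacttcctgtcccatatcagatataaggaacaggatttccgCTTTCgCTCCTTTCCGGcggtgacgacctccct
Rpl39, chrX:37085198-37085297, minus strand: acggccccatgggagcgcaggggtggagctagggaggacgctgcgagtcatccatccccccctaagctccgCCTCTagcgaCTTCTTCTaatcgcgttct
Rpl10, chrX:74270741-74270840, plus strand: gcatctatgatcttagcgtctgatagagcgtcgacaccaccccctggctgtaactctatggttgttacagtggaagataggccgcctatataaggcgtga
Rpl27, chr11:101442170-101442269, plus strand: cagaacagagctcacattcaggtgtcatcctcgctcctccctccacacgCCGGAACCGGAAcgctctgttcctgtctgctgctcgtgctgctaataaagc
Rpl36al, chr12:69184043-69184142, minus strand: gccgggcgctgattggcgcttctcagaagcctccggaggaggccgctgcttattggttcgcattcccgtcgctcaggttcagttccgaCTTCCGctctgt
Rps27rt, chr9:114982715-114982814, minus strand: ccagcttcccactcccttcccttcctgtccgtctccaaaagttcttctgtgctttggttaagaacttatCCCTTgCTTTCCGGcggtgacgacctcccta
Rpl7l1, chr17:46782632-46782731, minus strand: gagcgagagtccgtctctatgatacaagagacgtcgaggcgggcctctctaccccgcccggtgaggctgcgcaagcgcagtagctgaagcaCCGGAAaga
Rps6, chr4:86857343-86857442, minus strand: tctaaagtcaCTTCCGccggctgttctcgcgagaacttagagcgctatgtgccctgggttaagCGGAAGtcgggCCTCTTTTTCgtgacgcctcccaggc

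Rpl12, Rps27, Rpl39, Rps27rt and Rps6 had a pyrimidine run near the start, and Rpl10, Rpl27, Rpl36al and Rpl7l1 had none in this window. The promoters of Rps27 and of Rps27rt, a retrogene copy of Rps27, shared a run of 38 bases. Promoter entries existed for 65 of the 85 genes, and the first listed start was used for the 10 with several. In the whole 300-base entries, on either strand, CCGGAA was found in 50.8% of these genes and in 15.2% of all 27025 promoters, and CTTCCG in 66.2% and 17.2%. GATGGC, the core of the YY1 motif, was found in 20.0% against 14.1%, and TATAAA in 9.23% against 14.2%. A pyrimidine run led by C stood exactly at the annotated start in 20.0% against 2.49%, and within the wider window around it in 56.9% against 30.8%. A match describes letters only. At 10 mM the median log2 fold change was 0.34 in the 34 tested genes with a run in the wider window and 0.31 in the 28 without, 0.30 in the 13 with a run exactly at the start and 0.33 in the 49 without, and 0.32 in the 32 with CCGGAA and 0.32 in the 30 without.

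At 4 h, most of the ribosomal protein genes rose at 10 mM, by a similar and modest amount. At 10 mM, 67 of 82 genes were called higher and 1 lower in edgeR's quasi-likelihood test at a Benjamini-Hochberg adjusted p under 0.05 across 13258 genes, where 26% of all genes were called higher and 24.1% lower. The median log2 fold change of the 82 genes was 0.32 and that of all genes 0.01. At 6 mM, 21 were called higher and 1 lower, beside 20.3% and 19.6% of all genes, with a median of 0.21 against 0.02. At 4 mM, 2 were called higher and 2 lower, beside 19.5% and 19.1%, with a median of 0.05 against 0.03. At 1 mM, none was called higher and 1 was called lower, beside 4.48% and 5.36%, with a median of -0.02. All 4 comparisons shared the vehicle libraries at 4 h.

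**Figure D1:**
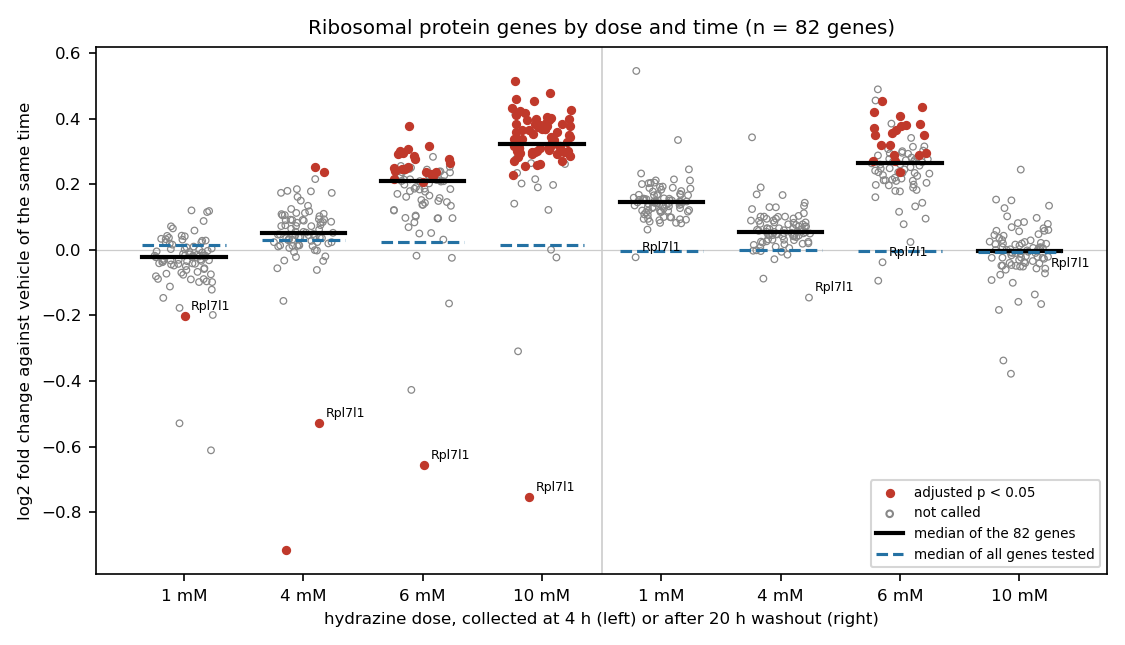
Log2 fold change of each of the 82 tested ribosomal protein genes against the vehicle of the same time, by dose, at 4 h and after washout; filled points were called at an adjusted p under 0.05, black bars are medians of the 82 genes and dashed bars medians of all genes tested. The median at 4 h is -0.02 at 1 mM and 0.32 at 10 mM, where Rpl7l1 lies at -0.75.

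Both scalings that follow gave lower counts at 10 mM. Scaling by library totals alone called 26 higher at 10 mM, with a median of 0.18, and upper quartile scaling called 44, with a median of 0.26. Library totals moved the median of all genes by -0.14, to -0.12. Without replicate c of 6 mM after washout, which is described with the washout results, 75 were called higher at 10 mM and 51 at 6 mM. Shares of all genes called are given only for the main fit, not for fits with another scaling or a library left out. At 6 mM the count of genes called higher was 3 without replicate a of 6 mM, 7 without its replicate c, and 12, 5 and 8 without replicates a, b and c of the vehicle. At 4 mM it was 6 without replicate c of 6 mM after washout, 3 without replicate a or b of 4 mM, and 1 without replicate d or e of 4 mM or any of the vehicle libraries. At 1 mM the call was lost without replicate a or c of the vehicle or any library of 1 mM, and 2 were called lower without replicate c of 6 mM after washout.

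In direct comparisons of doses at 4 h, 64 genes were higher at 10 mM than at 4 mM and 1 was lower, beside 27.4% and 27% of all genes, with a median of 0.27. Under library totals and upper quartile scaling 5 and 6 were called higher, and the median of all genes moved by -0.15 and -0.13. Between 10 and 6 mM, 3 genes were higher and none was lower, beside 19.5% and 18% of all genes, with a median of 0.13: Rpl7a, Rpl4 and Rps28, named after their values were seen. Under library totals and upper quartile scaling none was called higher between 10 and 6 mM, and 2 and 1 were called lower. The count was 23 without replicate c of 6 mM after washout and 5 without its replicate b. It was 0 without replicate b of 6 mM or any library of 10 mM at 4 h. It was 1 without replicate c of 6 mM, replicate a or c of the vehicle, or b or c of 1 mM at 4 h, and 1 without replicate b of the vehicle, a of 1 mM, b or c of 4 mM, or a or c of 10 mM after washout.

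The ribosomal protein genes took a larger share of all counts at the upper doses. The share was 5.76%, 5.39% and 5.77% in the vehicle libraries at 4 h and 6.66%, 6.26% and 6.44% in those at 10 mM. The groups did not overlap, with means of 5.64% ± 0.22 and 6.45% ± 0.20 (SD, n = 3 each). At 6 mM the share was 6.52%, 6.07% and 6.36%, also above every vehicle library. At 1 mM it was 5.58% ± 0.18 (n = 3) and at 4 mM 5.95% ± 0.23 (n = 5), and both overlapped the vehicle. Only 1 of the 82 genes was among the 20 most abundant genes.

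Genes of both subunits rose at 10 mM. Of 49 large subunit genes 41 were called higher and 1, Rpl7l1, lower, with a median of 0.32. Of 33 small subunit genes 26 were called higher and none lower, with a median of 0.33. Of all genes, 26% were called higher and 24.1% lower. The middle of the set was narrow: the quartiles of the log2 fold change were 0.28 and 0.38, a width close to the standard error of a single gene such as Rpl39, at 0.10.

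**Figure D2:**
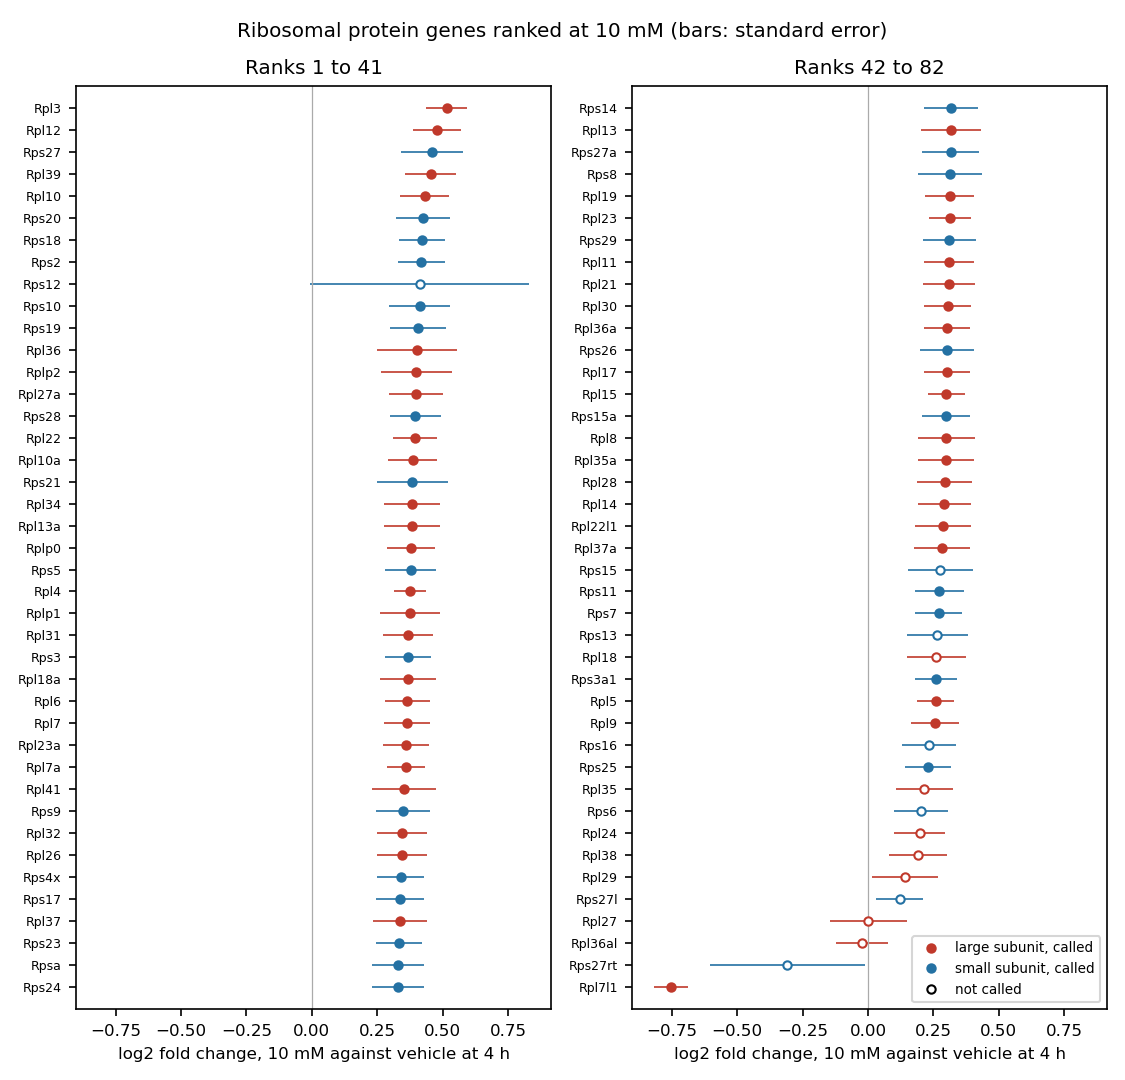
Log2 fold change of the 82 genes at 10 mM against vehicle at 4 h, in order, with standard errors; red marks the large and blue the small subunit, and open points were not called at an adjusted p under 0.05. Rpl3 leads at 0.51, and Rpl7l1 stands alone at the low end at -0.75.

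Rpl3, a large subunit protein beside the peptidyl transferase centre, had the highest value. It stood at 840, 818 and 874 CPM in the vehicle libraries at 4 h and at 1216, 1190 and 1212 CPM at 10 mM. At 4 mM it stood at 1003, 972, 986, 1079 and 983 CPM, and at 6 mM at 1128, 1079 and 1084 CPM. Every library at 4 mM and above lay over every vehicle library. The log2 fold change was 0.25 ± 0.07 at 4 mM (SE, adjusted p = 0.0051), 0.38 ± 0.08 at 6 mM (adjusted p = 0.00025) and 0.51 ± 0.08 at 10 mM (adjusted p = 2.6e-06, edgeR). Near-identical copies, chiefly pseudogenes, held 42.1% of the counts of Rpl3 and its copies together, so how reads were split between them is uncertain.

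Rpl12, which sits at the base of the stalk of the large subunit, stood at 919, 839 and 917 CPM in the vehicle and at 1277, 1217 and 1234 CPM at 10 mM. The groups did not overlap, and the log2 fold change was 0.48 ± 0.09 (adjusted p = 7.1e-05, edgeR). Its copies held 4.53% of the summed counts. The stalk itself, which recruits translation factors to the ribosome, is built of Rplp0, Rplp1 and Rplp2. All 3 were called higher at 10 mM, between 0.37 and 0.40, beside 26% of all genes called higher. Rpl39, a small protein of the exit tunnel, rose by 0.45 ± 0.10 and Rpl10, which joins the large subunit late in its assembly, by 0.43 ± 0.09 at 10 mM. Rpl10 was the other gene called higher at 4 mM, at 0.24 ± 0.08 (adjusted p = 0.025, edgeR). That call was lost without replicate d or e of 4 mM, at 0.20 and 0.19, without any of the vehicle libraries, at 0.23 to 0.24, with no filter on low counts, at 0.24, and with copies summed, at 0.11. With replicates a to c of 4 mM alone it was 0.13, and with a replicate block 0.13, both without a call.

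Genes whose proteins are reported to bind MDM2 or to act on p53, mostly from human cells, formed a list of 12. Of Rpl5, Rpl11, Rpl23, Rpl26, Rps3, Rps7, Rps14, Rps15, Rps20, Rps25, Rps26 and Rps27a, 11 of 12 were called higher at 10 mM, with a median of 0.31, and Rps15 was at 0.28 ± 0.12 without a call. This stood beside 26% of all genes and 67 of the 82 ribosomal protein genes called higher, and the median was close to the 0.32 of the whole set. Rps20 had the highest value of them at 0.42 ± 0.10 and Rps25 the lowest at 0.23 ± 0.09. Near-identical copies held 45.5% of the summed counts of Rps7, 35.8% of Rpl26, 22.9% of Rpl5 and 21.8% of Rpl11. How reads were split for these genes is uncertain. At 6 mM 2 of the 12, Rps3 and Rps20, were called, both higher, beside 20.3% of all genes called higher and 19.6% lower. Rpsa, the laminin receptor protein of the small subunit, rose by 0.33 ± 0.10, and Rpl13a, known in human cells from an interferon-driven translation block, by 0.38 ± 0.11. Rps6, the small subunit protein phosphorylated by the S6 kinases, stood at 823 ± 48.2 CPM in the vehicle and 947 ± 44.9 CPM at 10 mM (SD, n = 3), a log2 difference of 0.20 ± 0.10 that did not pass the test (adjusted p = 0.11, edgeR).

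Rpl7l1 went the other way. It is a paralog of Rpl7, and its human counterpart takes part in building the large subunit rather than in the mature ribosome. The gene lies on chr17:46773907-46782672 on the minus strand of GRCm38, in GENCODE M21. Its levels were 105, 103 and 116 CPM in the vehicle at 4 h, then 92.3, 93.7 and 95.5 CPM at 1 mM. At 4 mM it stood at 74.7, 74.9, 77.6, 75.9 and 71.6 CPM, at 6 mM at 68.4, 65.7 and 71.4 CPM, and at 10 mM at 66.2, 61.0 and 64.9 CPM. Every treated library at 4 h lay below every vehicle library, and the mean was lower at each higher dose, though the difference between 10 and 6 mM did not pass the test.

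The log2 fold changes of Rpl7l1 were -0.20 ± 0.06, -0.53 ± 0.06, -0.66 ± 0.06 and -0.75 ± 0.07 from 1 to 10 mM, with adjusted p of 0.041, 1.1e-08, 1.7e-09 and 7e-11 in the edgeR fit. It was also lower at 10 mM than at 4 mM, by -0.23 ± 0.06 (adjusted p = 0.0018). The call at 1 mM was lost under upper quartile scaling, with no filter on low counts and with any of 5 libraries left out, replicates a and c of the vehicle and a, b and c of 1 mM, where the value lay between -0.23 and -0.16. No annotated copy met the identity limit for Rpl7l1. Rpl7 itself rose by 0.36 ± 0.09 at 10 mM, so that the log2 ratio of Rpl7l1 to Rpl7 went from -3.54 ± 0.10 to -4.66 ± 0.05 (SD, n = 3 each).

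Rps27, a zinc-finger protein of the small subunit, stood at 208, 183 and 187 CPM in the vehicle and at 257, 260 and 278 CPM at 10 mM. The groups did not overlap, and the log2 fold change was 0.46 ± 0.12 (adjusted p = 0.0022, edgeR). Summed with its identical copy Rps27rt it was 0.29, below the median of the set, so its place among the highest genes and its ratio to Rps27l depend on how reads were split. Rps27l, a p53 target in human cells, stood at 246, 224 and 236 CPM in the vehicle, at 293, 263 and 281 CPM at 6 mM and at 261, 250 and 257 CPM at 10 mM. Its change was called at 6 mM, at 0.25 ± 0.09 (adjusted p = 0.029, edgeR), and not at 10 mM, at 0.12 ± 0.09. The call at 6 mM was lost without replicate b or c of the vehicle or a or c of 6 mM, with values from 0.20 to 0.23.

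Rps27rt matched Rps27 at 100% identity over 98.8% of the shorter transcript, so reads cannot be assigned between them with certainty. It stood at 66.6, 62.1 and 91.7 CPM in the vehicle and at 42.5, 47.8, 47.9, 40.3 and 17.4 CPM at 4 mM, with no overlap. It was called lower at 4 mM, at -0.91 ± 0.26 (adjusted p = 0.0077, edgeR), a call that was lost without replicate c of the vehicle, at -0.74. With the gene summed with Rps27 as its copy, the value was -0.05 at 4 mM and 0.29 at 10 mM.

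Other paralog pairs were compared within each library at 10 mM, since both members of a pair share its scaling. Rpl36al stood at 230, 225 and 232 CPM in the vehicle and 236, 215 and 225 CPM at 10 mM, with overlap. Rpl36a stood at 322, 307 and 329 CPM and at 407, 378 and 397 CPM, with none. The log2 ratio of Rpl36al to Rpl36a was -0.48 ± 0.03 in the vehicle and -0.81 ± 0.02 at 10 mM, and that of Rps27l to Rps27 went from 0.29 ± 0.05 to -0.05 ± 0.07. Rpl22 stood at 236, 216 and 231 CPM in the vehicle and at 298, 303 and 296 CPM at 10 mM. Rpl22l1, whose level in mice is restrained by the Rpl22 protein, stood at 194, 172 and 181 CPM and at 221, 224 and 224 CPM. Neither pair of groups overlapped, and both genes were called, at 0.40 ± 0.08 and 0.29 ± 0.11. The ratio of Rpl22l1 to Rpl22 was -0.32 ± 0.03 and -0.43 ± 0.02. Over 8 comparisons of ratios, 4 pairs at 2 times, each 4 h comparison gave a two-sided exact permutation p of 0.10 (0.133 adjusted), the smallest that 3 against 3 allows.

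**Figure D3:**
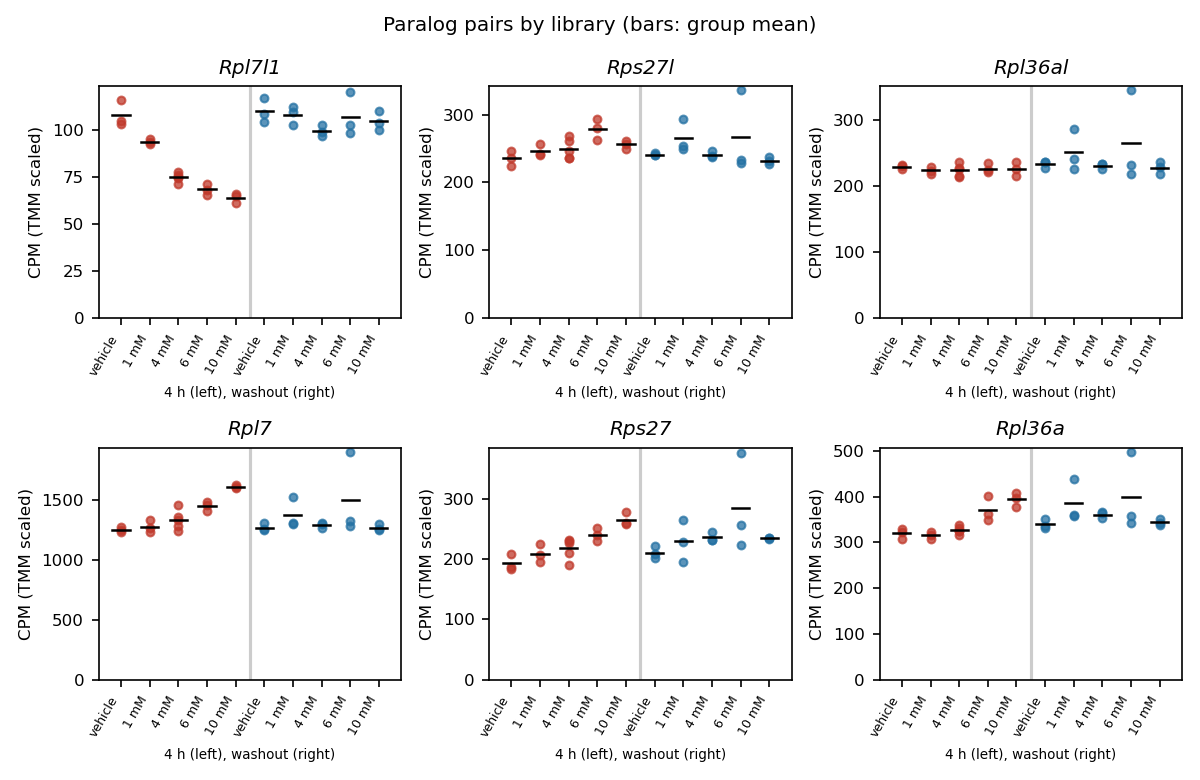
CPM in every library for 3 paralog pairs, Rpl7l1 with Rpl7, Rps27l with Rps27 and Rpl36al with Rpl36a, at 4 h and after washout, with bars at group means and axes from 0. The mean of Rpl7l1 is 108 CPM in the vehicle and 64.1 CPM at 10 mM at 4 h, and 105 CPM after washout of 10 mM, and replicate c of 6 mM after washout lies high for every gene shown.

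In all, 14 of the 82 genes were not called at 10 mM, of which 12 had a positive value. Rpl27 was at 0.00 ± 0.15 and Rpl29 at 0.14 ± 0.13. Copies held 88.3% of the summed counts of Rpl29 and 87.3% of those of Rps12. Counting only copies outside the 85 genes, which leaves out Rps27 and Rps27rt as copies of each other, copies held over 10% for 14 genes, of which 11 were called higher, against 56 of the other 68. With every gene summed with its copies, 71 were called higher and 1 lower. Without copies summed, 26% of all genes were called higher and 24.1% lower. In 30 genes that contain an annotated snoRNA gene the median log2 fold change at 10 mM was 0.36, and in the other 52 it was 0.31. Across the 82 genes the Spearman correlation of the change at 10 mM with transcript length was -0.01, with GC content 0.21 and with mean count 0.23, as a description over genes that share libraries.

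Per kilobase of transcript, the levels in the vehicle at 4 h spanned a wide range. Rpl41, which encodes the smallest ribosomal protein, was highest at 3359 ± 171 CPM per kb, followed by Rplp1 at 2564 ± 145, and these did not overlap within their SDs. Rpl23a at 1769 ± 11.8 and Rps15 at 1750 ± 140 CPM per kb did not differ beyond their spread. At the low end of the tested genes were Rpl7l1 at 82.4 ± 5.19 and Rpl29 at 71.1 ± 4.70 CPM per kb. Copies held 88.3% of the summed counts of Rpl29, so its place depends on how reads were split. The same limit applies to the low levels of Rps12, at 309 ± 35.9, and Rpl21, at 148 ± 3.17 CPM per kb. Their copies held 87.3% and 68.9%. Rpl41 rose by 0.35 ± 0.12 at 10 mM.

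After washout of 10 mM the ribosomal protein genes stood near their vehicle levels. There, none of the 82 genes was called in either direction by edgeR's quasi-likelihood test, beside 3.38% of all genes called higher and 1.94% lower, with a median of 0.00. DESeq2 also called none, and 2 genes had an unadjusted p under 0.05. Without replicate c of 6 mM after washout 2 were called lower, and without replicate e of 4 mM at 4 h 1 was. At 4 mM none was called by either tool, beside 2.31% and 1.17% of all genes, with a median of 0.06 and 1 gene under an unadjusted 0.05. At 1 mM none was called by either tool, beside 0.694% and 0.287%, but the median was 0.14 and 9 genes had an unadjusted p under 0.05. That median was 0.04 without replicate b of 1 mM, in which all 82 genes lay above the vehicle mean, and 5 genes were called higher without replicate c of 6 mM after washout. Between the vehicles of the 2 times none was called by either tool, beside 3.33% and 3.55% of all genes, with a median of 0.01 and 1 gene under an unadjusted 0.05.

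At 6 mM after washout, 20 genes were called higher and none lower, beside 6.43% and 4.63% of all genes, with a median of 0.27. This rested on replicate c. Its share of counts in ribosomal protein genes was 8.48%, against 5.93% and 5.79% in replicates a and b and 5.52%, 5.53% and 5.75% in the vehicle. Against the vehicle mean the median of the 82 genes was 0.61 in replicate c, 0.07 in a and 0.02 in b. Without replicate c, 1 gene was called higher and the median was 0.04. Without replicate a or b the counts were 65 and 71. They were 4, 2 and 5 without replicates a, b and c of the washout vehicle. The count was 13 without replicate b of 1 mM or c of 6 mM at 4 h, or a of 4 mM after washout. Fitting the washout libraries alone left 1 gene called higher.

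Replicate c of 6 mM after washout differed from the others by transcript length over the whole table. Its deviation from the other libraries of its group had a Spearman correlation of -0.49 with transcript length across genes, with a median of 0.27 for genes under 800 bases and -0.42 for genes over 4000 bases. The median transcript of the ribosomal protein genes is 712 bases long. Replicates a and b of that group, whose deviations are taken against c among others, were at 0.39 and 0.43. Replicate b of 1 mM after washout had the next most negative correlation, at -0.39, with medians of 0.12 and -0.19. With an offset for the length trend of each library, the median at 6 mM after washout was 0.14 with 19 genes called higher, and that at 10 mM at 4 h was 0.32 with 74 called higher. The libraries at 10 mM and 4 h had length correlations of -0.12, 0.13 and -0.04.

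**Figure D4:**
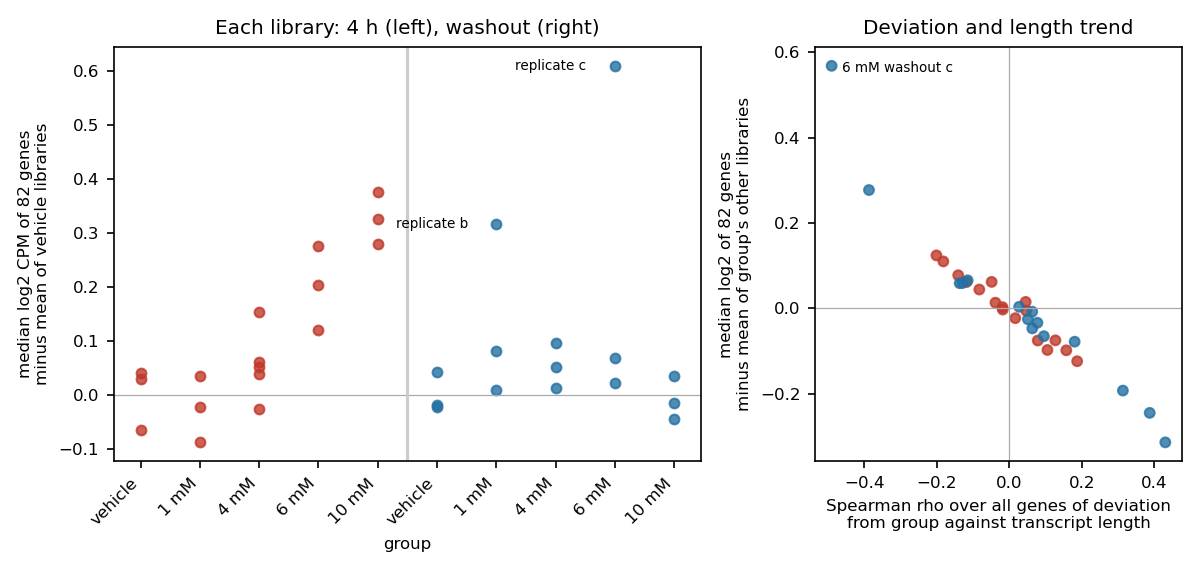
Left, the median over the 82 genes of log2 CPM minus the mean of the vehicle libraries of the same time, 1 point per library. Right, the median deviation of the 82 genes from the other libraries of the group against the correlation of all genes' deviations with transcript length; replicate c of 6 mM after washout lies at 0.57 and -0.49 and replicate b of 1 mM after washout at 0.28 and -0.39.

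At 6 mM after washout Rps27 stood at 255, 224 and 375 CPM in replicates a, b and c and at 202, 208 and 222 CPM in the vehicle, and its log2 fold change was 0.44 ± 0.12 (adjusted p = 0.019, edgeR). Rpl10 had 0.45 ± 0.09 (adjusted p = 0.0021) and Rplp2 0.42 ± 0.13 (adjusted p = 0.044), with the same library highest. Rpl36al, without a call, stood at 231, 217 and 344 CPM there and at 236, 226 and 236 CPM in the vehicle.

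The difference between times was tested directly at 10 mM. The effect after washout minus that at 4 h was called lower for 30 genes and higher for 1, beside 18.4% and 18% of all genes, with a median of -0.32. In both directions together, the share called was close to that of all genes. Rpl3, at 833, 824 and 847 CPM after washout of 10 mM and 856, 837 and 849 CPM in its vehicle, had a difference of -0.54 ± 0.11 (adjusted p = 0.00031, edgeR). Rpl7a, a large subunit protein, stood at 1129, 1103 and 1115 CPM after washout of 10 mM, below its vehicle at 1212, 1248 and 1339 CPM, and at 1689, 1596 and 1625 CPM at 10 mM at 4 h, above its vehicle at 1274, 1252 and 1302 CPM. Its difference was -0.54 ± 0.10 (adjusted p = 0.00013, edgeR). The call higher was Rpl7l1, at 0.68 ± 0.09 (adjusted p = 7e-07, edgeR): after washout of 10 mM it stood at 100.2, 110 and 104 CPM, overlapping its vehicle at 109, 104 and 117 CPM. The ratio of Rps27l to Rps27 was lower after washout of 10 mM, at -0.01 ± 0.03 against 0.20 ± 0.06 in the vehicle, and that of Rpl22l1 to Rpl22 was -0.47 ± 0.01 against -0.33 ± 0.05. Both had a two-sided exact permutation p of 0.10 (0.133 adjusted), the smallest that this design allows. As at 4 h, the ratio of Rps27l to Rps27 depends on how reads were split between Rps27 and Rps27rt. Rps27 stood at 210 ± 10.5 CPM in the washout vehicle and 234 ± 0.08 CPM after washout of 10 mM. Rps27rt stood at 47.6 ± 4.27 and 37.8 ± 5.32 CPM. The count called lower was 5 under library totals, 10 under upper quartile scaling and 68 without replicate c of 6 mM after washout, and between 13 and 19 without any of the replicates a, b or c of the vehicle at 4 h, a or c of 10 mM at 4 h, b or c of the washout vehicle, or a or b of 10 mM after washout.

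Other mRNAs of the TOP class, on a list of translation factors and related genes, also rose at 4 h. Of 22 other TOP mRNAs, 18 were called higher at 10 mM and none lower, beside 26% and 24.1% of all genes. Their median was 0.32. Library totals and upper quartile scaling lowered the number of ribosomal protein genes called higher at 10 mM. Values of this list and of those that follow are given for the main fit only. Eef2, the elongation factor that moves the ribosome along the mRNA, stood at 6159 ± 100.4 CPM in the vehicle and 8510 ± 338 CPM at 10 mM, a change of 0.47 ± 0.05 (adjusted p = 4.95e-09, edgeR). Pabpc1, the poly-A binding protein, rose by 0.44 ± 0.05. After washout of 10 mM none of the 22 was called higher and 1 lower, beside 3.38% and 1.94% of all genes. The 1 called lower was Hnrnpa1, at -0.24 ± 0.04, and the median of the 22 was -0.02.

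The introns of snoRNA host genes release snoRNAs, and most of the listed hosts are non-coding. Of 11 tested, 10 were called higher at 10 mM and 1 lower, beside 26% and 24.1% of all genes, with a median of 0.87. Zfas1 went from 41.9 ± 4.12 to 137 ± 7.72 CPM, a log2 fold change of 1.71 ± 0.11 (adjusted p = 1.6e-13, edgeR), and Gas5 from 146 ± 7.92 to 314 ± 24.5 CPM, at 1.10 ± 0.09. Snhg20 was lower, at -0.69 ± 0.15. At 1 mM, 5 of the 11 were called lower, beside 5.36% of all genes, Snhg6 at -0.57 ± 0.12 among them. After washout of 10 mM none was called, beside 3.38% of all genes called higher and 1.94% lower. Rack1, a protein-coding host that belongs to both lists, rose by 0.37 ± 0.08 at 10 mM.

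The products of the mitochondrial ribosomal protein genes form the ribosome of mitochondria. Of 78 tested, 7 were called higher and 16 lower at 10 mM, beside 26% and 24.1% of all genes. Their median was -0.02, from Mrpl18 at -0.96 ± 0.08 to Mrps30 at 0.60 ± 0.08. The 16 regulators split, with 6 called higher and 6 lower, beside the same 26% and 24.1% of all genes. Mdm2, the ubiquitin ligase of p53 and a p53 target, stood at 260 ± 14.2 CPM in the vehicle and 1783 ± 85.0 CPM at 10 mM, a log2 fold change of 2.78 ± 0.06. Ddit4 and Sesn2, which restrain mTORC1, rose by 1.76 ± 0.12 and 0.95 ± 0.08, and Tsc1 by 0.99 ± 0.11. Mtor fell by 0.54, Rptor by 0.33, Rps6kb1 by 0.32 and Myc by 0.45 on the log2 scale. The lowest log2 fold change of the 16 was -0.81, for Eif4ebp2, at 187 ± 2.76 CPM in the vehicle and 107 ± 6.26 CPM at 10 mM. Mycn went from 6.95 ± 0.57 to 4.62 ± 0.59 CPM. Eif4ebp1 went from 111 ± 13.8 to 152 ± 8.95 CPM and Tsc2 from 56.0 ± 1.32 to 70.7 ± 0.86 CPM. Larp1 was at 0.04 ± 0.08 and not called at 10 mM, and was called lower at 4 mM at -0.24 ± 0.07.

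**Figure D5:**
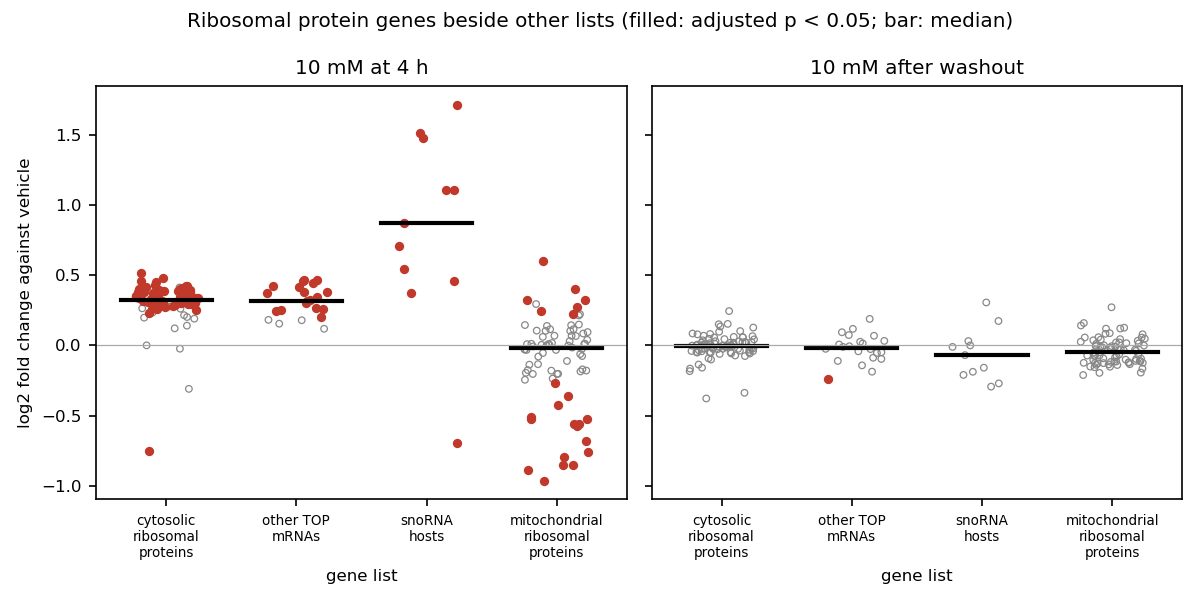
Log2 fold change against vehicle of the ribosomal protein genes, 22 other TOP mRNAs, 11 snoRNA hosts and 78 mitochondrial ribosomal protein genes at 10 mM, at 4 h and after washout; filled points were called and bars are medians. At 4 h the medians are 0.32, 0.32, 0.87 and -0.02, and after washout they lie at 0.00, -0.02, -0.07 and -0.04.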

How the data were processed

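RNA of 32 libraries was sequenced. The authors deposited 1 table of expected counts; aligner, settings and build are not given in the sources used here. Counts were rounded. Genes were matched to GENCODE M21 on GRCm38 by identifier (48174 of 49585 entries, 97.2%). Genes were kept with edgeR's filter (minimum count 10), scaled with TMM and tested with edgeR's quasi-likelihood test in a fit of all 32 libraries with 1 coefficient per group (22 residual degrees of freedom), with Benjamini-Hochberg adjustment over 13258 genes at 0.05. Fold changes have standard errors from the F statistic, and CPM values SDs over libraries. The computation was tested on simulated data. Copies were genes matching a member's transcript at 95% identity over at least 50% of the shorter transcript. Transcript length was the median over the annotated protein-coding transcripts of a gene, or over all its transcripts where it had no coding one. Replicates were not copies of each other (chi-square per degree of freedom at least 2.1). Totals ran from 10560942 to 17086721 counts per library. CPM used TMM-scaled totals.

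The members and lists were chosen with earlier results of these data known. Named genes were the 5 highest and 5 lowest at 10 mM at 4 h, listed roles and paralog pairs, members called against the majority at 4 h or called at a log2 change of at least 0.58, the largest called after washout, and the 3 with the largest called difference between times. The alternatives were other scalings, DESeq2's Wald test, other filters and fits, a replicate block, a length offset, copies summed, and each library left out. The window for pyrimidine runs around the start was added after seeing the data. The software was edgeR 4.0.16 and DESeq2 1.42.0 under R 4.3.3, with limma 3.58.1.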

Additional observations from a re-analysis of the deposited data

Results flagged for a closer look

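Within the 4 mM group at 4 h, which held 5 libraries, the highest or lowest library stood far from the rest for 2 of 37 values examined, where chance alone would do so for about 1 in 20. Rpl3 stood at 1079 CPM in replicate d, above the other 4 libraries. Rps27rt stood at 17.4 CPM in replicate e, below the other 4, and it shares its sequence with Rps27.

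The effect of 10 mM differed between 4 h and washout for 31 members by the test of the difference itself (edgeR, adjusted p under 0.05), 30 of them lower and 1 higher after washout, beside 18.4% and 18% of all genes. Taken in both directions together, the share of members called was close to that of all genes. The count was 11 with upper quartile scaling, 6 with library totals, and from 14 to 69 with 1 library left out. The members with the largest differences were Rpl7l1 at 0.68, Rpl7a at -0.54 and Rpl3 at -0.54.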

How the results depend on the processing

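Counts here are genes called in either direction among the 82. The share of all genes called under each alternative is not given. At 10 mM and 4 h, 45 were called with upper quartile scaling (median 0.26) and 27 with library totals (median 0.18). At 10 against 4 mM these gave 7 (0.14) and 6 (0.12), at 10 against 6 mM 1 (0.034) and a median of 0.029, and for the difference between times 11 (-0.24) and 6 (-0.16). Upper quartile scaling gave 0 at 1 mM and 8 at 4 mM at 4 h, and library totals 31 at 6 mM after washout. With no filter on low counts, 0 were called at 1 mM at 4 h, 9 at 6 mM after washout, 0 at 10 against 6 mM and 18 for the difference. With libraries of 1 time only, 2, 8 and 56 were called at 1, 4 and 6 mM at 4 h, 28 at 10 against 6 mM and 1 at 6 mM after washout. The length offset gave 7 and 52 at 4 and 6 mM at 4 h, 37 at 10 against 6 mM, 68 for the difference and 2 at 10 mM after washout. DESeq2 gave 32 at 6 mM after washout. Copies summed gave 2 at 4 mM at 4 h and reversed Rps27rt at 10 mM (0.29) and Rpl29 at 6 mM after washout (0.29). Without replicates d and e of 4 mM, 1 was called at 10 mM after washout. The cause was not tested.

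Across all genes, same-lettered libraries did not correlate throughout (median r 0.00, 9 of 135 pairs over 0.1), so letters were not taken to pair samples. These pairs pooled both times, so the median cannot show whether letters shared a trend at 4 h alone. For the 82 genes, replicate b at 4 h lay below the mean of the other libraries of its group in each of 5 groups. Its median deviation was -0.12 to -0.01, with length correlations of 0.05 to 0.19. At 1 mM, where this deviation was -0.01, replicate c lay lower, at -0.08. The replicate block gave 69 at 10 mM and 4 h, 13 at 6 mM and 1 at 10 mM after washout. The block with length offset gave 52 at 6 mM at 4 h, 37 at 10 against 6 mM, 67 for the difference, and 1, 1 and 2 at 1, 4 and 10 mM after washout.

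With each library left out, counts ran from 0 to 2, 2 to 8, 4 to 52 and 46 to 76 from 1 to 10 mM at 4 h, and 0 to 5, 0 to 0, 1 to 71 and 0 to 2 after washout. They ran from 44 to 74 at 10 against 4 mM, 0 to 24 at 10 against 6 mM and 14 to 69 for the difference.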
